A study of Mus musculus with 7 samples.

Results

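A set of 10 surface markers of mesenchymal stem cells, fibroblasts and the mural cells of vessels was followed in sarcoma cells sorted from mouse tumours: Ly6a, Ly6c1, Thy1, Eng, Vcam1, Alcam, Mcam, Fap, Dpp4 and Cspg4. They were chosen by name, with earlier results of these data known. All 10 were found among the 35727 genes of the deposited table. They were also among the 13740 genes that passed a filter on low counts. The tumours came from 2 models of undifferentiated pleomorphic sarcoma, a cancer of connective tissue whose cells match no normal lineage. Mesenchymal stem cells from female p53KO mice of the C57/Bl6 strain had received a retroviral vector for Ccne1 (cyclin E1; model p53KO Ccne1 OE, 4 libraries) or for Vgll3 (a cofactor of TEAD transcription factors; model p53KO Vgll3 OE, 3 libraries). The p53KO label was thus shared by all libraries. Each model is a tumour line that had been passaged in female wild-type recipients under the skin before it was transplanted into the experimental mice, and sorting by red fluorescent protein (RFP) was the step that separated tumour cells from the cells of the host. The labels give no age, and do not say whether a line was clonal or whether each library came from its own animal, so the spread behind each p-value is that among libraries, and part of it may be technical. The transduced gene and any other difference between the 2 tumour lines cannot be told apart.

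Library totals lay between 21725890 and 53610300 estimated counts, and values are given in CPM (a gene's counts relative to the scaled total of its library). Vgll3 was 4.96-fold higher in the libraries labelled for it, while Ccne1 was 12.7 ± 5.61 CPM (SD, n = 4) in those labelled for Ccne1 and 14.9 ± 2.16 CPM (SD, n = 3) in the others, so the groups are called by their labels. Counts for Trp53, the gene of p53, were present in every library, at 63.1 to 75.4 CPM, and a sum over the whole gene does not check a deletion of part of it. Vgll3-labelled replicate 3 stood apart, with a Pearson r across genes of 0.956 and 0.960 to its own group while the remaining within-group pairs had 0.978 to 0.987. Results that rest on it are given with and without it.

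Surface markers such as these are used to isolate mesenchymal stem cells and to tell fibroblast states apart, and many of them are shared with vessel or immune cells. Ly6a (the stem cell antigen Sca-1), Ly6c1 and Thy1 (CD90) are small proteins held in the membrane by a glycosylphosphatidylinositol (GPI) lipid anchor. Vcam1 (CD106), Alcam (CD166) and Mcam (CD146) are adhesion molecules of the immunoglobulin superfamily. Eng (endoglin, CD105) is a co-receptor for ligands of the TGF-beta and BMP family, Fap and Dpp4 (CD26) are related serine peptidases that cut after proline, and Cspg4 (NG2) is a large chondroitin sulphate proteoglycan of pericytes and progenitor cells. In culture, CD90 and CD105 are among the markers by which mesenchymal stem cells are defined.

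The markers split evenly between the models. Of the 10 tested, 4 rose (Fap, Vcam1, Alcam and Eng) and 4 fell (Ly6a, Ly6c1, Cspg4 and Dpp4) in the Vgll3-labelled relative to the Ccne1-labelled libraries, and 2 (Thy1 and Mcam) were not called. The call is an edgeR quasi-likelihood test with a Benjamini-Hochberg adjusted p below 0.05 over all genes tested. By that rule 51.9% of all genes were called, 25.1% higher and 26.8% lower in Vgll3-labelled libraries. At least 2-fold differences were called for 7 of the 10 markers, against 16.7% of all genes. The median log2 fold change of the 10 was -0.79 and the median of its absolute value was 1.62, beside 0.006 and 0.429 over all genes tested. The groups did not overlap for 7 of the 10 markers, against 55.7% of all genes. Because the 10 were chosen with earlier results of these data known, these shares do not measure how unusual the set is. When each library was left out in turn, 4 markers rose every time and 3 to 5 fell.

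**Figure D1:**
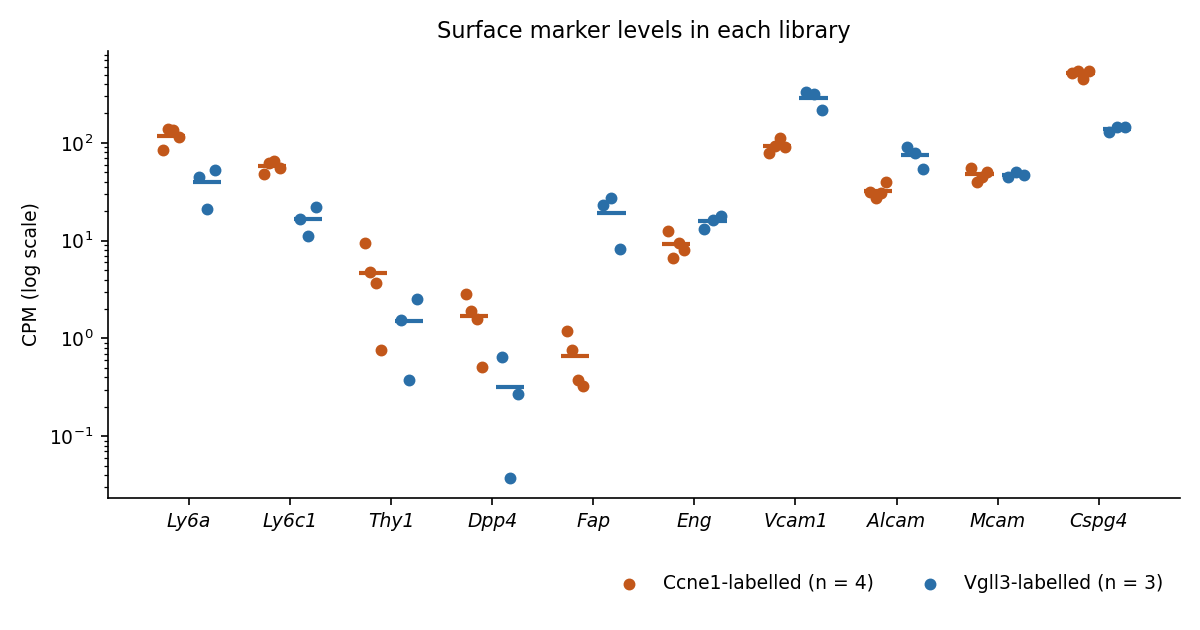
Level of each of the 10 surface markers in CPM (log scale, vertical axis) in the 4 Ccne1-labelled and 3 Vgll3-labelled libraries; points are libraries and bars are group means. The groups do not overlap for 7 markers, and Thy1, Dpp4 and Mcam are those that overlap.

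Promoter sequence was at hand for 6 of the 10 markers (RefSeq, GRCm38.p6, 250 bases before to 50 after a start). The 4 below are shown because their genes cover each outcome: Cspg4 and Dpp4 were lower in Vgll3-labelled libraries, Alcam was higher and Mcam stayed level. Capitals mark matches on either strand to any of 5 short motifs. The core bound by TEAD factors, the partners of Vgll3, was searched as GGAATG. The site of the AP-1 factors that many growth signals activate was searched as TGANTCA. The GC box to which Sp1 and its relatives bind was taken to be GGGCGG. The E-box of the Myc family and other such factors was taken to be CACGTG, and the TATA box of core promoters was read as TATAAA. No 2 matches overlap.
Cspg4: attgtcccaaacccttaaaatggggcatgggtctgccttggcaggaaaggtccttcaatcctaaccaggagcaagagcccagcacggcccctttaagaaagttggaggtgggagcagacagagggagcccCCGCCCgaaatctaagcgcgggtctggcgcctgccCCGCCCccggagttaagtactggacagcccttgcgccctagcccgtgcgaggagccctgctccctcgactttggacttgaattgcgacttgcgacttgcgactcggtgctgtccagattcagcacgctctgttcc
Dpp4: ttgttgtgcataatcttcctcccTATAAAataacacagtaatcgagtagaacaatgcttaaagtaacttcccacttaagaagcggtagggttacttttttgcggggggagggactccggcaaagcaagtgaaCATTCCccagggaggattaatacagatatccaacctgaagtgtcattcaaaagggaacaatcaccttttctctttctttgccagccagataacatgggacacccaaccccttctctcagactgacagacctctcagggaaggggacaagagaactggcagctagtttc
Alcam: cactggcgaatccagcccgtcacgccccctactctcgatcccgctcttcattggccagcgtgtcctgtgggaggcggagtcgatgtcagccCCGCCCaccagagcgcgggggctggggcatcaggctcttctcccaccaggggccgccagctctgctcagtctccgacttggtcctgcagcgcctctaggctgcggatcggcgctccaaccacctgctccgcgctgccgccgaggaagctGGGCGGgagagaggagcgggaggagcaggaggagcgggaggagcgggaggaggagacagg
Mcam: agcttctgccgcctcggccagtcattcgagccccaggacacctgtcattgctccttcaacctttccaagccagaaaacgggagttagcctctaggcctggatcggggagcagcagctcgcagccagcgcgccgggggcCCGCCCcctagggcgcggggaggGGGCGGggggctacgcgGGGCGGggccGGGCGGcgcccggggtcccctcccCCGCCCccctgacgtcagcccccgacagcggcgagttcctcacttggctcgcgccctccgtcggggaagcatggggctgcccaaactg
The windows are chr9:56864854-56865153 (plus strand) for Cspg4, chr2:62412182-62412481 (minus strand) for Dpp4, chr16:52453032-52453331 (minus strand) for Alcam and chr9:44134408-44134707 (plus strand) for Mcam. GC boxes stood in Cspg4 (2 matches), Alcam (2) and Mcam (5), and 35.7% of all 32851 promoter windows of this length hold one. They were thus found in a promoter of a gene that fell, of one that rose and of one that did neither. The TEAD core was matched only in Dpp4 among the 6 genes, starting 118 bases before the start, and 14.7% of all windows hold it. A TATA box match stood in Dpp4 and in 1 of the 2 Ly6c1 windows (13.6% of all windows). These began 227 and 143 bases before the start, are matches to the letters only, and were not tested for function. AP-1 and E-box matches were in none of the 6 genes (7.81% and 7.15% of all windows).

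Both LY6 genes were lower in Vgll3-labelled libraries, about 3-fold. Ly6a (ENSMUSG00000075602, mm10 chromosome 15, 74994877 to 74998031, protein-coding) was 85.1, 139, 135 and 116 CPM in Ccne1-labelled replicates 1 to 4 and 45.2, 21.1 and 52.7 CPM in Vgll3-labelled replicates 1 to 3. Every Ccne1-labelled library was above every Vgll3-labelled one, and Vgll3-labelled replicate 2 was lowest. Its log2 fold change was -1.58 (SE 0.34, edgeR adjusted p = 0.00735). Ly6c1 (ENSMUSG00000079018, chromosome 15, 75044018 to 75048830, protein-coding) was 47.8, 62.6, 64.9 and 55.4 CPM against 16.6, 11.1 and 22.3 CPM. As for Ly6a, the groups did not overlap, and replicate 1 was lowest among the Ccne1-labelled and replicate 2 among the Vgll3-labelled libraries. The log2 fold change of Ly6c1 was -1.79 (SE 0.23, edgeR adjusted p = 0.000473). Leaving out Vgll3-labelled replicate 2, the lowest library, gave -1.29 for Ly6a and -1.58 for Ly6c1, still called (edgeR adjusted p = 0.00283 and 0.000333).

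The LY6 genes are close copies, so a count estimate can be shared out between them. Of the 31-base words in the annotated transcripts of Ly6a, 31.9% also occur in another gene, 21.9% in Ly6c1. For Ly6c1 the share was 46.8%, with 33.0% in Ly6c2 and 15.7% in Ly6a, while none of the other 8 markers shared more than 3.22%. Summed over Ly6a, Ly6c1, Ly6c2 and Ly6i, the level was 134, 202, 200 and 171 CPM in Ccne1-labelled and 62.1, 32.4 and 75.5 CPM in Vgll3-labelled libraries (log2 fold change -1.64, edgeR adjusted p = 0.00366), so the lower level did not depend on how reads were divided among these 4. The ratio of Ly6a to Ly6c1 counts within a library was 1.78 to 2.22 in Ccne1-labelled and 1.89 to 2.72 in Vgll3-labelled libraries. These overlap, and the difference of the log2 ratio, 0.18, had a two-sided exact permutation p = 0.314 (adjusted p = 0.314 over the 3 pairs of markers compared).

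The rest of the LY6 and urokinase receptor family was mostly silent. Of 25 family members in the table, 5 were tested, 1 rose and 3 fell, their median log2 fold change was -0.55, and 8 had no count in any library. Ly6e, the most abundant, fell from 632 ± 53.6 to 441.9 ± 25.3 CPM (SD, n = 4 and n = 3; log2 fold change -0.52, edgeR adjusted p = 0.00135). Lynx1 had the largest fall, from 23.4 ± 1.90 to 12.0 ± 4.53 CPM, and Plaur, the urokinase receptor, was the other that fell (log2 fold change -0.55). The 1 that rose, Cd59b, stayed under 1 CPM in every library.

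Thy1 (ENSMUSG00000032011, chromosome 9, 44043384 to 44048579, protein-coding) was low and uneven. It was 9.42, 4.73, 3.65 and 0.763 CPM in Ccne1-labelled replicates 1 to 4 and 1.56, 0.378 and 2.54 CPM in Vgll3-labelled replicates 1 to 3. Ccne1-labelled replicate 4 lay below Vgll3-labelled replicates 1 and 3, so the groups overlapped, and the spread within a group was 77.5% and 72.5% of its mean. The log2 fold change of -1.62 had a 95% interval from -3.69 to 0.46 (edgeR adjusted p = 0.163), which leaves room for a level from 0.0773 to 1.37 times that of the Ccne1-labelled libraries. Without Ccne1-labelled replicate 4 the log2 fold change was -1.97 (edgeR adjusted p = 0.05, just under the threshold before rounding), and without replicate 1 it was -1.03 (edgeR adjusted p = 0.334).

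Dpp4 (ENSMUSG00000035000, chromosome 2, 62330073 to 62412231, protein-coding) was the least abundant marker in Vgll3-labelled libraries, at 0.643, 0.0378 and 0.268 CPM (30, 1 and 8 counts). In the Ccne1-labelled libraries it was 2.82, 1.89, 1.58 and 0.509 CPM (62, 98, 51 and 14 counts). Ccne1-labelled replicate 4 lay below Vgll3-labelled replicate 1, so these groups overlapped too. The log2 fold change was -2.33 (SE 0.79, edgeR adjusted p = 0.0354), with a two-sided exact permutation p = 0.0857. The call ended without Ccne1-labelled replicate 1, 2 or 3 or Vgll3-labelled replicate 2 or 3 (edgeR adjusted p = 0.0798, 0.0696, 0.0655, 0.0679 and 0.0948), and the log2 fold change was -3.41 without Vgll3-labelled replicate 1.

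Thy1 and Dpp4 shared their order over the Ccne1-labelled libraries with some markers of normal fibroblasts and not with others. Normal fibroblasts carry both proteins, and a set of 12 fibroblast genes was used to look for them. The order of the 4 Ccne1-labelled libraries was the same for Thy1, Dpp4, Fap and 7 of the 12 fibroblast genes. The 5 with another order were Dcn, Gsn, Cd34, Fbln1 and Igf1, among them the most abundant of the set. The share of all genes tested that had the order of Thy1 was not counted, so 7 of 12 cannot be called high or low. Pi16, a marker of fibroblasts of the vessel adventitia, named after its values were seen, was 22.7, 17.7, 17.3 and 5.85 CPM in Ccne1-labelled and 7.91, 0.264 and 9.50 CPM in Vgll3-labelled libraries. All 7 libraries stood in the same order for Pi16 and for Thy1. Clec3b (12.8, 8.93, 4.89 and 1.67, then 2.10, 0.113 and 0.234 CPM) and Mfap5, also picked after their values were seen, had the order of Dpp4 in all 7 libraries. Between Ccne1-labelled replicates 1 and 4 the level differed 12.3-fold for Thy1, 5.55-fold for Dpp4, 3.62-fold for Fap, and from 2.77-fold (Col15a1) to 7.65-fold (Clec3b) for the 7 fibroblast genes that shared the order. In the other 5 the ratio of replicate 1 to replicate 4 was 0.706 for Cd34, 0.75 for Dcn, 0.994 for Igf1, 1.13 for Gsn and 1.2 for Fbln1.

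Over the whole fibroblast set, 11 of 12 were tested, 1 rose and 3 fell between the models, with a median log2 fold change of -0.71. Its summed level was 1360 to 1640 CPM in Ccne1-labelled and 732 to 879 CPM in Vgll3-labelled libraries, and none of the 12 was at 0 in every library. Most of that sum came from Dcn (decorin, 585 ± 131 and 87.8 ± 63.2 CPM, SD, n = 4 and n = 3) and Gsn (gelsolin), which both fell and did not share the library order of Thy1 and Dpp4. Dpt, a matrix protein of normal dermis, had the largest fall of those called, from 12.8 ± 6.84 to 1.83 ± 1.20 CPM (SD, n = 4 and n = 3, edgeR adjusted p = 0.0174). Clec3b had a larger estimate (log2 fold change -3.01) but was not called (edgeR adjusted p = 0.0569). The most abundant, Gsn, fell from 652 ± 55.6 to 459 ± 39.7 CPM, and Fbln1 rose from 31.3 ± 4.38 to 39.6 ± 3.90 CPM. Dpt was not called without Vgll3-labelled replicate 3 (edgeR adjusted p = 0.0672), without a filter on low counts (edgeR adjusted p = 0.0598) or by limma-voom (adjusted p = 0.0874). Without Vgll3-labelled replicate 1 its log2 fold change moved from -2.76 to -3.37, and the number that fell was between 2 and 5 when a library was left out. The call for Fbln1 ended without Ccne1-labelled replicate 2, 3 or 4 or Vgll3-labelled replicate 2 or 3 (edgeR adjusted p = 0.0834, 0.0942, 0.0761, 0.0789 and 0.097), which left 0 that rose. T cells also carry Thy1. Of their markers Cd3e was at most 0.0857 CPM in any library, Lck 0.581 to 1.1 CPM and Trac 0.45 to 1.98 CPM. The part of host fibroblasts and T cells in the levels of Thy1 and Dpp4 was not tested, and in sorted bulk cells fewer cells of a type and less RNA per cell cannot be told apart.

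**Figure D2:**
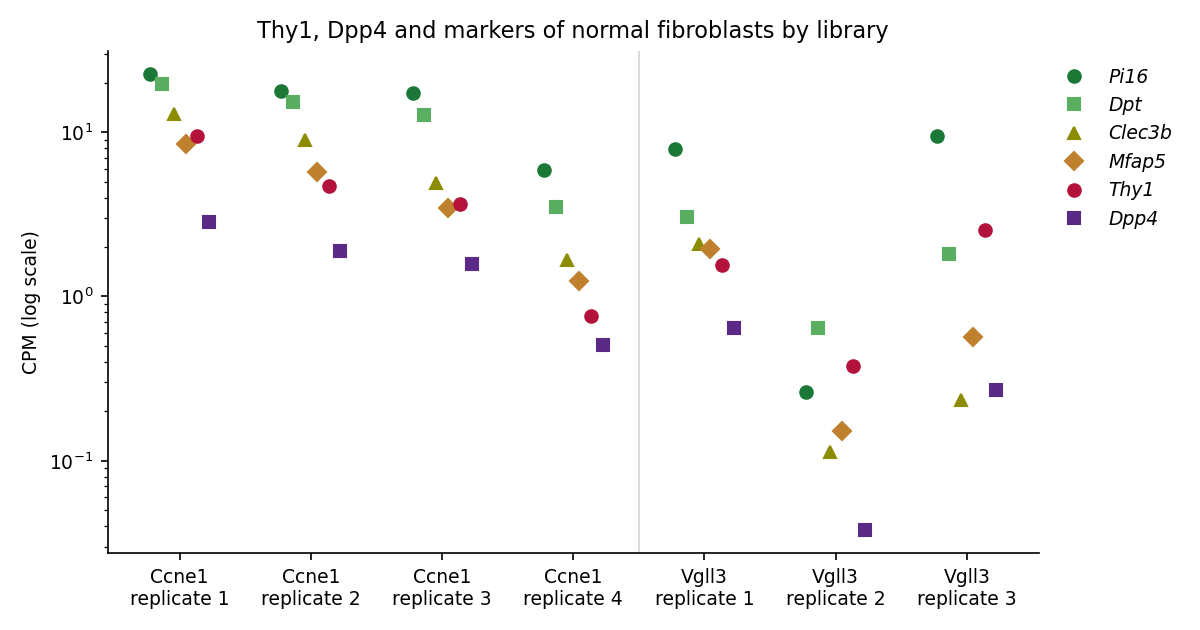
Thy1, Dpp4 and 4 of the 7 normal fibroblast genes that share their order (Pi16, Dpt, Clec3b and Mfap5) in each of the 7 libraries, in CPM on a log scale. In the Ccne1-labelled libraries all 6 genes are highest in replicate 1 and lowest in replicate 4, and in Vgll3-labelled libraries all 6 are lowest in replicate 2. The 4 fibroblast genes were picked from the 7 of 12 that share the Ccne1-labelled order. Dcn, Gsn, Cd34, Fbln1 and Igf1, not shown, have another. Col15a1, also not shown, shares it but is lowest among Vgll3-labelled libraries in replicate 1 (6.22 CPM).

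Fap, the other peptidase, went the opposite way and showed the widest difference of the 10. Fibroblast activation protein marks activated fibroblasts of wounds and tumour stroma and cuts collagen fragments. Fap (ENSMUSG00000000392, chromosome 2, 62500943 to 62574075, protein-coding) was 1.18, 0.770, 0.372 and 0.327 CPM in the Ccne1-labelled libraries (26, 40, 12 and 9 counts) and 23.0, 27.1 and 8.17 CPM in Vgll3-labelled libraries. Every Vgll3-labelled library was above every Ccne1-labelled one, and within the Vgll3-labelled group replicate 3 was lowest. The means, 0.663 ± 0.400 and 19.4 ± 9.95 CPM (SD, n = 4 and n = 3), differed 29.3-fold. Its log2 fold change of 4.89 (SE 0.57, edgeR adjusted p = 0.000425) was larger in size than that of 99.4% of the genes tested, and it stayed between 4.57 and 5.27 when each library was left out.

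Fap and Dpp4 are neighbours on chromosome 2, 88.7 kb apart, with Gcg the only protein-coding gene between them. The ratio of Fap to Dpp4 counts was 0.419, 0.408, 0.235 and 0.643 in the Ccne1-labelled libraries, where Dpp4 had more counts than Fap in each, though the exact counting interval in replicate 4 (0.245 to 1.59) included 1. In the Vgll3-labelled libraries it was 35.8 (95% exact counting interval 24.9 to 53.3), 716 (128 to 28300, with 1 Dpp4 count) and 30.5 (15.2 to 71.4). The log2 ratio, with 0.5 added to both counts, was -1.29 ± 0.586 (SD, n = 4) and 6.29 ± 2.26 (SD, n = 3). It differed by 7.59, with a two-sided exact permutation p = 0.0286, the smallest this design allows, and adjusted p = 0.0858 over the 3 pairs. Intervals cover counting error only.

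Other genes listed with this enzyme family changed less. Of 8 tested, 1 rose and 4 fell, with a median log2 fold change of -0.11. The list reached beyond serine peptidases: Dpp3, which fell (log2 fold change -0.46), and Anpep, which was not called (0.33), are zinc peptidases. Dpp10, which has no peptidase activity and modulates potassium channels, rose from 0.676 ± 0.163 to 2.24 ± 1.25 CPM (SD, n = 4 and n = 3; edgeR adjusted p = 0.00868), and the lysosomal peptidase Dpp7 fell from 23.4 ± 2.22 to 10.5 ± 1.99 CPM (edgeR adjusted p = 0.000185). Prep, the most abundant, was 104 ± 7.25 and 109.6 ± 2.02 CPM (edgeR adjusted p = 0.430).

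Of the 3 adhesion molecules, Vcam1 and Alcam were higher in Vgll3-labelled libraries and Mcam was level. Vcam1 (ENSMUSG00000027962, chromosome 3, 116109949 to 116129688, protein-coding), a ligand of alpha-4 integrins that captures leukocytes on activated endothelium and is also carried by stromal cells, was 78.3, 91.9, 112 and 90.7 CPM in Ccne1-labelled and 328, 315 and 217 CPM in Vgll3-labelled libraries. The groups were clear of each other, with Vgll3-labelled replicate 3 the lowest of its group. The log2 fold change was 1.62 (SE 0.16, edgeR adjusted p = 0.000103), and 1.79 without that library.

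Alcam (ENSMUSG00000022636, chromosome 16, 52248996 to 52454074, protein-coding), which binds itself and the T cell receptor CD6, was 31.3, 27.1, 30.4 and 39.7 CPM against 91.0, 79.2 and 54 CPM. Replicate 3 was again lowest among the Vgll3-labelled libraries and still above all Ccne1-labelled ones. The log2 fold change was 1.22 (SE 0.19, edgeR adjusted p = 0.00122), and 1.42 without Vgll3-labelled replicate 3.

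Mcam (ENSMUSG00000032135, chromosome 9, 44134469 to 44142727, protein-coding), a marker of pericytes and endothelium and of stem cells beside vessels, was 54.9, 40.1, 45.1 and 50.2 CPM in Ccne1-labelled and 45.1, 50.1 and 47.4 CPM in Vgll3-labelled libraries. All 3 Vgll3-labelled values lay within the range of the Ccne1-labelled ones. The 95% interval of the log2 fold change ran from -0.25 to 0.24, that is, from 0.844 to 1.18 times the Ccne1-labelled level (edgeR adjusted p = 0.998). The ratio of Thy1 to Mcam, whose genes lie 85.9 kb apart, was 0.0155 to 0.172 in Ccne1-labelled and 0.00792 to 0.0540 in Vgll3-labelled libraries (two-sided exact permutation p = 0.257, adjusted p = 0.314 over the 3 pairs).

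Eng (ENSMUSG00000026814, chromosome 2, 32646595 to 32682669, protein-coding) was 12.7, 6.58, 9.48 and 7.99 CPM in Ccne1-labelled and 13.3, 16.1 and 18 CPM in Vgll3-labelled libraries. The groups did not overlap, but Ccne1-labelled replicate 1 came within 1 CPM of Vgll3-labelled replicate 1. The rise was the smallest of the 4, with a log2 fold change of 0.78 (SE 0.21, edgeR adjusted p = 0.0142) and a two-sided exact permutation p = 0.0571.

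Endothelial cells carry Eng, Mcam, Ly6c1 and, when activated, Vcam1, so their markers are given beside these genes. All 13 endothelial genes listed were tested, 1 rose and 0 fell. Their median log2 fold change was -0.23, and none was at 0. Their summed level was 85.7 to 182 CPM in Ccne1-labelled and 154 to 323 CPM in Vgll3-labelled libraries. The 1 that rose was Flt1 (VEGF receptor 1), the gene with the highest mean, from 28.9 ± 2.56 to 105 ± 20.9 CPM (SD, n = 4 and n = 3, edgeR adjusted p = 1.67e-05). Most of the summed level in each library came from Flt1 and Pecam1 together. The defining markers Pecam1 and Cdh5 were not called (edgeR adjusted p = 0.410 and 0.300). Cdh5 was 11.3 to 26.2 CPM in Ccne1-labelled and 5.57 to 17.2 CPM in Vgll3-labelled libraries. Pecam1 was 22.4 to 71.3 CPM and 19.6 to 184 CPM, the last in Vgll3-labelled replicate 3, the library in which Eng was highest. Without that library the log2 fold change of Pecam1 turned from 0.94 to -0.60, and that of Eng was 0.69 (edgeR adjusted p = 0.0477). The part of endothelial cells in the levels of Eng, Mcam, Ly6c1 and Vcam1 was not tested.

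Cspg4 (ENSMUSG00000032911, chromosome 9, 56865033 to 56899870, protein-coding) had the smallest adjusted p of the 10 and the highest CPM in the Ccne1-labelled libraries. It was 520, 543, 452 and 540 CPM there and 128, 147 and 144 CPM in Vgll3-labelled libraries. The groups stood far apart, with a spread of 8.25% and 7.34% of the mean within them. The log2 fold change was -1.88 (SE 0.10, edgeR adjusted p = 3.86e-06), a 3.68-fold lower mean, and it stayed between -1.94 and -1.83 when each library was left out. None of its 31-base words occurs in another gene.

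Mural cells of vessels also carry Cspg4, and their markers are given beside it. Of 10 mural genes, 8 were tested, 4 rose and 0 fell. Their median log2 fold change was 0.58, and none was at 0 in every library. Their summed level was 59.7 to 129 CPM in Ccne1-labelled and 191 to 322 CPM in Vgll3-labelled libraries. Most of that sum in each library came from Acta2, at 40.7 to 109 CPM and 163 to 283 CPM. Rgs5, a pericyte gene, rose from 0.543 ± 0.328 to 5.95 ± 1.89 CPM (SD, n = 4 and n = 3; edgeR adjusted p = 0.000431), and Acta2, the smooth muscle actin that myofibroblasts also make, from 74.7 ± 35.1 to 226 ± 59.9 CPM (edgeR adjusted p = 0.0164). The 4 not called had log2 fold changes of -1.31 (Kcnj8, whose groups did not overlap), -0.66 (Ndufa4l2), -0.55 (Abcc9) and 0.15 (Cnn1). Myh11, which defines smooth muscle, was at most 0.346 CPM. Without Vgll3-labelled replicate 2, 1 mural gene rose. The call for Acta2 ended without Vgll3-labelled replicate 2 or 3 (edgeR adjusted p = 0.0589 and 0.0527). The part of mural cells in the level of Cspg4 was not tested.

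Cd14 was the most abundant of the macrophage and T cell markers. Of 12 macrophage genes, 9 were tested and 1 fell, Cd14, from 59.4 ± 7.89 to 6.39 ± 1.85 CPM (SD, n = 4 and n = 3; edgeR adjusted p = 1.63e-05). Their sums were 60.2 to 81.4 CPM and 13.8 to 25.5 CPM. Cd14 alone was 51.9 to 69.3 CPM and 4.31 to 7.84 CPM, and so made up most of the sum in Ccne1-labelled libraries. Ptprc, which defines leukocytes, was at most 3.05 CPM. Without Vgll3-labelled replicate 3, 2 macrophage genes fell. Of 10 T cell genes, 2 were tested and 0 were called by edgeR, with 1 at an unadjusted p below 0.05. That was Trac, the most abundant, at 1.66 ± 0.258 and 0.861 ± 0.357 CPM (edgeR adjusted p = 0.0600). Trac was called by limma-voom and DESeq2 and by edgeR without Vgll3-labelled replicate 3 (adjusted p = 0.0228, 0.0456 and 0.041). The T cell sums were 2.25 to 3.21 CPM and 2.23 to 2.74 CPM, in which the groups overlapped.

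**Figure D3:**
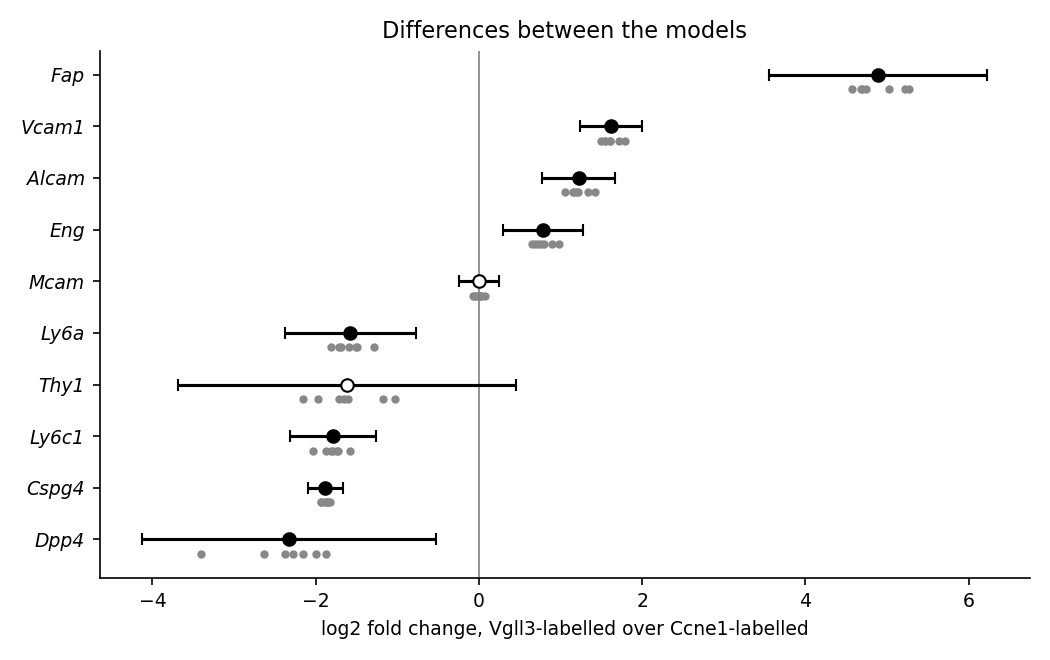
Log2 fold change of each surface marker, Vgll3-labelled over Ccne1-labelled (horizontal axis); large points are the estimate over 7 libraries with its 95% interval, filled where called by edgeR at an adjusted p below 0.05, and small grey points are the estimates without 1 library each. Fap lies farthest right at 4.89 and Mcam on 0, and the grey points are most scattered for Dpp4 and Thy1.

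Because longer transcripts give more counts, levels of different markers were compared per kb of summed exon length. In the Ccne1-labelled libraries Ly6a led with 98.5 ± 20.3 CPM per kb (SD, n = 4), followed by Cspg4 (43.1), Ly6c1 (34.4), Mcam (14.2), Vcam1 (10.5), Alcam (4.51), Eng (2.27), Thy1 (1.55), Dpp4 (0.269) and Fap (0.117). Neighbours in that order overlapped between libraries for Cspg4 and Ly6c1, Mcam and Vcam1, Eng and Thy1, Thy1 and Dpp4, and Dpp4 and Fap. In the Vgll3-labelled libraries Ly6a (32.9 ± 13.7 CPM per kb, SD, n = 3) and Vcam1 (32.3 ± 6.85) shared the top and overlapped. They were followed by Mcam (14.2), Cspg4 (11.7), Alcam (10.5), Ly6c1 (9.95), Eng (3.90), Fap (3.43), Thy1 (0.499) and Dpp4 (0.050). Cspg4 overlapped with Alcam, Alcam with Ly6c1 and Eng with Fap. Per kb, Vcam1 was thus number 5 in one model and number 2 in the other, and Fap went from number 10 to number 8.

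Summed over the 10 markers, the level was 843 to 918 CPM in Ccne1-labelled and 566 to 693 CPM in Vgll3-labelled libraries. On this scale, which favours long transcripts, Cspg4 made up 52.9% to 61.6% of the sum in Ccne1-labelled and 18.5% to 25.4% in Vgll3-labelled libraries. Vcam1 made up 9.29% to 13.1% and 38.3% to 47.4%, so the leading marker changed from Cspg4 to Vcam1.

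Other surface proteins of mesenchymal stem cells and fibroblasts were as divided as the 10. Of 22 tested, 7 rose and 10 fell, the same numbers when each library was left out, with a median log2 fold change of -0.06. Cdh11, the cadherin of mesenchymal cells, had the largest rise, from 29.95 ± 6.26 to 231.6 ± 22.8 CPM (SD, n = 4 and n = 3; log2 fold change 2.95, edgeR adjusted p = 7.32e-06). The most abundant, the endocytic receptor Lrp1, rose from 1987 ± 106 to 4014 ± 582 CPM. Ngfr (CD271), a marker of primitive marrow stromal cells, had the largest fall, from 1.14 ± 0.432 to 0.0907 ± 0.126 CPM (edgeR adjusted p = 0.00825). Its log2 fold change of -3.72 became -6.02 without Vgll3-labelled replicate 3 and -3.02 without replicate 1. Ngfr had 0, 1 and 7 counts in Vgll3-labelled replicates 1 to 3, so the size of its fall rests on few counts. The PDGF receptors, named after their values were seen, parted: Pdgfra was 856 to 989 CPM in Ccne1-labelled and 196 to 279 CPM in Vgll3-labelled libraries, while Pdgfrb was 157 to 210 CPM and 547 to 1100 CPM (log2 fold changes -2.02 and 2.14, both called). Nt5e (CD73), named in the same way, fell from 262.8 ± 26.8 to 24.96 ± 5.33 CPM (SD, n = 4 and n = 3). Its log2 fold change was -3.39 (edgeR adjusted p = 3.86e-06).

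Partners of the markers also changed in both directions. Of 27 genes of ligands and co-receptors tested, 10 rose and 10 fell, with a median log2 fold change of -0.07. The largest rise was in Itga4, the alpha-4 integrin that binds VCAM1, at 0.955, 0.693, 0.217 and 0.254 CPM in Ccne1-labelled and 10.4, 12.9 and 8.63 CPM in Vgll3-labelled libraries (log2 fold change 4.33, edgeR adjusted p = 0.000119). Vcam1 and this integrin chain were thus both higher in the same 3 libraries. The beta partner of alpha-4, Itgb1, fell (log2 fold change -0.46, edgeR adjusted p = 0.0103). The integrin genes Itga9 (-2.58, edgeR adjusted p = 7.19e-05) and Itgb7 (-1.21, edgeR adjusted p = 0.00043) fell too, so the rise of Itga4 was not shared by them. Itgb3, whose heterodimer with the alpha-V integrin binds Thy1, had the largest fall, from 82.0 ± 10.03 to 5.44 ± 4.43 CPM (SD, n = 4 and n = 3; log2 fold change -3.94, edgeR adjusted p = 0.00149), and -4.86 without Vgll3-labelled replicate 3.

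Among further partners, named after their values were seen, Lama4, a laminin chain that binds Mcam, rose (log2 fold change 2.33), as did Cxcl12, a chemokine that Dpp4 cleaves (1.33). Lgals3 (galectin-3), a binding partner of Cspg4, fell together with it (-3.22). Acvrl1, the receptor with which endoglin signals in endothelium, was 1.49 to 2.27 and 1.95 to 2.74 CPM, with an edgeR adjusted p = 0.579. The most abundant partner was fibronectin, Fn1, with 9463 ± 782 and 12560 ± 666 CPM (SD, n = 4 and n = 3; edgeR adjusted p = 0.00657).

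Of 16 genes of membrane proteases that cut such markers and of GPI anchor synthesis, 1 rose and 7 fell, with a median log2 fold change of -0.23. Mmp14, the protease that releases endoglin, was the most abundant and had the largest fall among those at 1 CPM or more, from 2531 ± 127 to 1364 ± 78.6 CPM (SD, n = 4 and n = 3; edgeR adjusted p = 4.95e-05). Pgap1, which remodels the lipid anchor, was the 1 that rose, from 1.41 ± 0.338 to 6.38 ± 1.96 CPM (edgeR adjusted p = 0.000281).

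**Figure D4:**
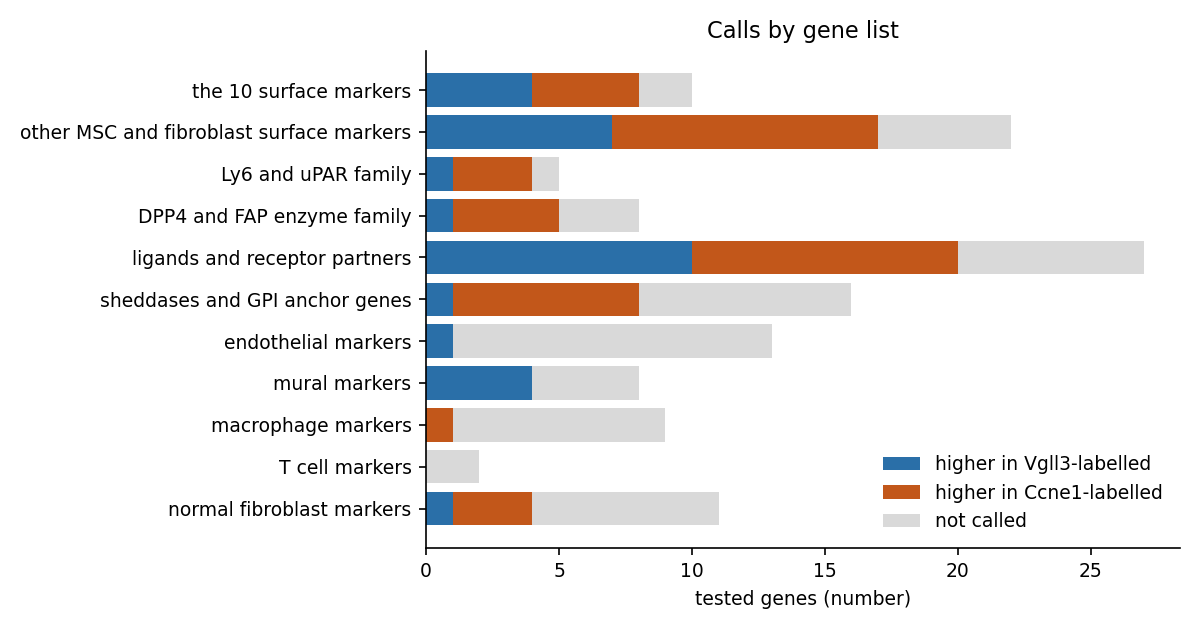
Number of tested genes (horizontal axis) called higher in Vgll3-labelled libraries, higher in the Ccne1-labelled libraries or not called, for the 10 surface markers and 10 other gene lists. The 10 surface markers hold 4, 4 and 2, and 12 of 13 endothelial genes are not called.

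The genome around the markers did not move as a block. Tested genes within 500 kb of a marker had median log2 fold changes between -0.10 and 0.20 around Ly6a, Thy1, Eng, Vcam1, Mcam and Cspg4, which have 7 to 30 such neighbours each. Beside Vcam1, 4 of 9 neighbours rose and 2 fell, and the highest was S1pr1, a receptor for sphingosine-1-phosphate (log2 fold change 2.26). Around Ly6a, 3 of 7 fell (Ly6c1, Ly6e and Lynx1) and 1 rose (Arc, 2.05). Fap had only 2 tested neighbours: Ifih1, a sensor of viral RNA, rose with it (2.53), and Dpp4 fell. Alcam had 1, Cblb, which fell (-1.05).

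**Figure D5:**
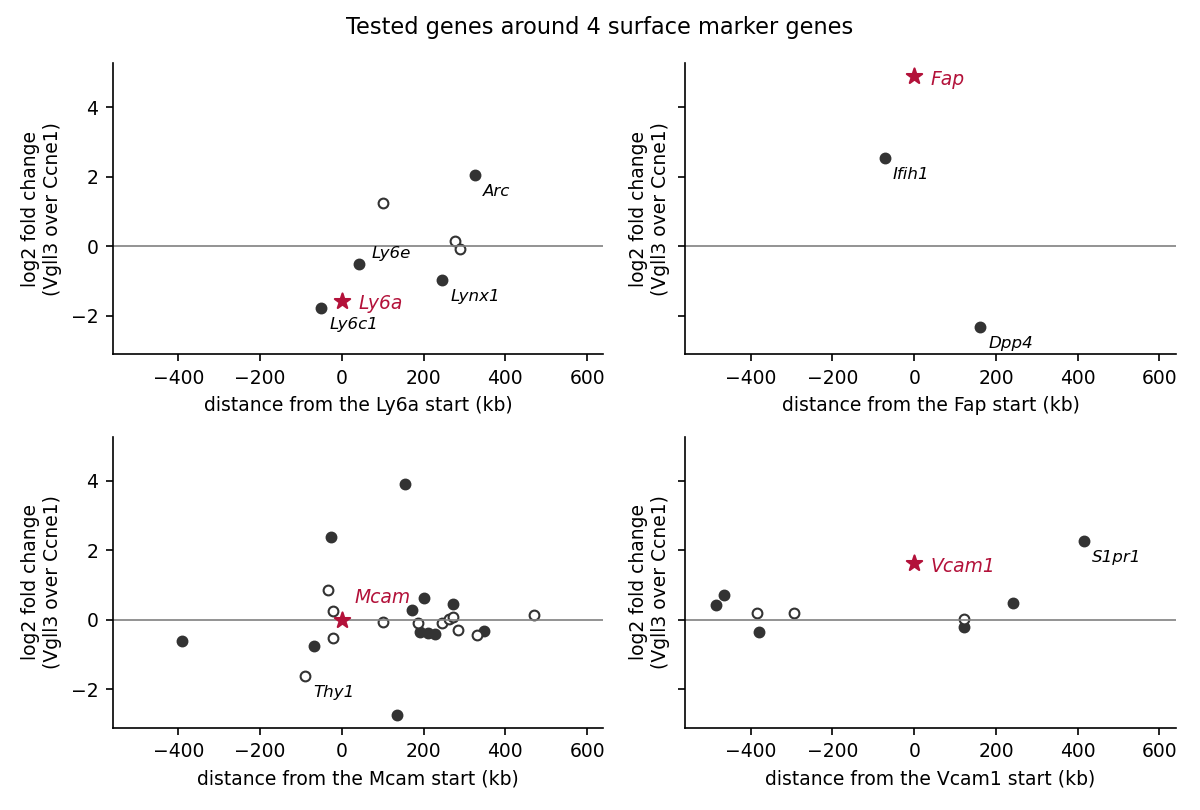
Log2 fold change (Vgll3-labelled over Ccne1-labelled, vertical axis) of tested genes within 500 kb of Ly6a, Fap, Mcam or Vcam1 against the distance of their start from that of the marker (star), positive in its direction of transcription; filled points are called. Fap at 4.89 and Dpp4 at -2.33 lie on opposite sides of 0, and Ly6a, Ly6c1, Ly6e and Lynx1 all lie below 0.

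For each marker the gene with the most similar profile was sought among 8824 other genes with a mean of at least 10 CPM, by Pearson r of log2 CPM over the 7 libraries. With libraries in separate groups such values run high by the group difference alone, and 1109 genes were above 0.95 for Cspg4. The closest were Slc35e4 for Cspg4 (r = 1.000 after rounding), Glipr2 for Vcam1 (0.998), Sbno1 for Ly6a (0.998), Tpp1 for Ly6c1 (0.996), Acot7 for Fap (0.996), Tpr for Alcam (0.995) and Plk1 for Eng (0.994). Pearson r takes no account of the size of a difference. Log2 fold changes were -0.29 for Sbno1 (Ly6a -1.58), 0.61 for Acot7 (Fap 4.89) and 0.38 for Tpr (Alcam 1.22). Glipr2 (1.45) and Plk1 (0.90) came nearer to Vcam1 (1.62) and Eng (0.78). Fewer genes came near Dpp4, with 10 above 0.95, among them complement C4b (0.990), and near Thy1 and Mcam, with 2 each above 0.95 (Napa, 0.957, and Vars, 0.956). C4b was 25.1 ± 14.3 CPM (SD, n = 4) in Ccne1-labelled and 3.96 ± 4.10 CPM (SD, n = 3) in Vgll3-labelled libraries and was not called (edgeR adjusted p = 0.0546). Its log2 fold change of -2.61 ran from -3.93 to -2.17 when each library was left out, with a call without Ccne1-labelled replicate 4 or Vgll3-labelled replicate 1 (edgeR adjusted p = 0.0348 and 0.0222).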

How the data were processed

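The data were polyA RNA-seq of sorted sarcoma cells, 4 libraries labelled Ccne1 and 3 labelled Vgll3, grouped by their titles. The authors deposited 1 table of estimated counts for each Ensembl gene, without scaling; Salmon and mm10 are named per the submitters' processing notes. Its version, the annotation and the strand setting were not given in the sources used here, so reads of antisense or overlapping genes may be mixed. All values were whole, so none was rounded. Of 35727 genes, 35493 matched a GENCODE annotation of the same build (GRCm38), the source of symbols, 1-based gene bounds and summed exon lengths.

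Testing used edgeR 4.0.16 under R 4.3.3 (filterByExpr, TMM scaling, quasi-likelihood F test in its robust form, the model as sole term), with p-values adjusted over 13740 genes by Benjamini-Hochberg, with a threshold of 0.05. Log2 fold changes are Vgll3-labelled over Ccne1-labelled, and the SE is the absolute log2 fold change over the square root of F. The biological coefficient of variation was 20.7%. CPM used TMM-scaled library sizes, and 3 counts, the upper limit for a count of 0, equal 0.0577 to 0.136 CPM. Within a group, any pair of libraries differed by more than sampling noise, with a chi-square of 12.4 to 96.3 per degree of freedom, so none was a copy. Single values had two-sided exact permutation tests over 35 splits, which cannot give a p under 0.0286. The fit was also run on simulated counts in which only a small share of genes was changed. It was not tested on a case such as this one, where 51.9% of genes were called.

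The markers and all gene lists were chosen with earlier results of these data known. Named from each of the 10 other lists were the called gene with the largest rise and the largest fall, at 1 CPM or more in the higher group, and the gene with the highest mean CPM. For each marker, the most similar gene was named too; other genes were picked after their values were seen. Alternatives were RLE scaling, library totals, no filter, limma-voom (limma 3.58.1), DESeq2 1.42.0, a replicate block and leaving out each library. Summing the 4 LY6 copies was chosen after seeing the data.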

Additional observations from a re-analysis of the deposited data

How the results depend on the processing

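The calls of Fap, Vcam1, Alcam, Ly6c1 and Cspg4 held in every alternative. Replicate numbers did not pair the libraries: same-numbered libraries had deviations from their group means that correlated at -0.141, -0.159 and -0.0981, so no library matched its own number best. With a replicate block 4841 genes were called instead of 7133, and among the markers Ly6a (log2 fold change -1.65, edgeR adjusted p = 0.0508) and Eng (0.76, adjusted p = 0.0647) were not called. With that replicate block, the ligand and partner list had 5 that rose, the mural list 2, the Ly6, Dpp and fibroblast lists 0 each; the protease and anchor list had 3 that fell, the Dpp list 2 and the fibroblast list 5. The sign of Mcam, whose estimate lay beside 0, turned with RLE scaling (0.0169), library totals (0.024), limma-voom (0.0161), DESeq2 (0.00855) and the replicate block (0.0364), never with a call. Leaving out 1 library each gave -0.0742 to 0.0742 for Mcam, -3.41 to -1.87 for Dpp4 and -2.16 to -1.03 for Thy1. It gave 1 to 4 mural genes that rose, 2 to 5 fibroblast genes that fell and 0 to 1 that rose, 1 to 2 macrophage genes and 0 to 1 T cell genes that fell. Without a filter on low counts 1 mural gene rose. DESeq2 called 5 fibroblast genes and 1 T cell gene lower, and limma-voom 1 T cell gene. Among single genes named, leaving out 1 library gave -0.602 to 1.40 for Pecam1, negative without Vgll3-labelled replicate 3, and -0.136 to 0.014 for Vars, positive without Ccne1-labelled replicate 1. No other scaling moved the median of all genes by more than 0.0268 on the log2 scale. Depth limited Dpp4 and, in the Ccne1-labelled libraries, Fap, with 1 to 98 counts per library.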
